A study of Mus musculus with 8 samples.

Results

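Transcripts of 7 genes of the interleukin-1, interleukin-6, interleukin-17 and tumour necrosis factor (TNF) systems were examined in the ascending aorta of a mouse model of Marfan syndrome. They are the cytokine genes Il6, Tnf and Il33, the inhibitor genes Il1rn, Il1r2 and Il18bp, and the receptor gene Il17ra. They were chosen by symbol, and all 7 were found among the 1329 genes of the deposited table. All mice carried the Fbn1 mgR/mgR genotype, which lowers expression of fibrillin-1 in every tissue, so the controls had the disease genotype too and no healthy aorta was compared. The 4 DT-061 libraries came from mice dosed orally at 5 mg/kg, 2 times a day, starting at 5 weeks of age and lasting 4 weeks. The 4 Vehicle libraries came from mice given the carrier solution (N,N-dimethylacetamide, Kolliphor HS-15 and water) on the same schedule. DT-061 is a small molecule that activates protein phosphatase 2A. No label says whether each library was 1 mouse, so the spread between libraries may in part be technical.

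Interleukin-1 family cytokines, IL-17 and TNF signal through adaptor proteins and kinases to NF-κB, a transcription factor that induces chemokine, adhesion and acute phase genes. IL-6 acts through gp130 and STAT3 and also induces acute phase genes. The interleukin-1 system is held back by its own inhibitors: Il1rn encodes a receptor antagonist, Il1r2 a decoy receptor without a signalling domain, and Il18bp a soluble protein that neutralises IL-18. Inflammatory cytokines of this kind are known in aneurysmal aortas, where leukocytes, fibroblasts and smooth muscle cells can all make or answer them.

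The file name says that the table holds genes significant between the groups. The comparison was therefore used to choose its rows, and the p-values below describe these libraries and are not independent evidence of a change. Values are FPKM, fragments scaled to gene length and library size. Library size, recovered from the steps between low values, was 14300000 to 15600000 fragments with DT-061 and 14100000 to 22200000 with Vehicle. Changes are differences of mean log2(FPKM + 1), DT-061 minus Vehicle, tested with limma over all 1329 genes. Rose and fell are used of genes with an adjusted p under 0.05.

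The promoters of the set were read from RefSeq (build GRCm38.p6), which held a window for 6 of the 7 genes, all but Il17ra. They are shown because 3 genes induced in inflammation, Il6, Il1rn and Tnf, differ in the motifs they carry. Each line gives the 250 bases before the start site, 5′ to 3′ on the gene's strand. Capitals mark matches to the NF-κB consensus or to the AP-1 motif TGANTCA on either strand. Il6 lies at chr5:30012864-30013113 on the plus strand, Il1rn at chr2:24336610-24336859 on the plus strand and Tnf at chr17:35202008-35202257 on the minus strand.
Il6: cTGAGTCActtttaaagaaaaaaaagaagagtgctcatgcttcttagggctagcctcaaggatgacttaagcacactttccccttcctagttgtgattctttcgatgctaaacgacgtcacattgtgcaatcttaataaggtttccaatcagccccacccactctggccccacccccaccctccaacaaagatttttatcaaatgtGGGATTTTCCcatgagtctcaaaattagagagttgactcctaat
Il1rn: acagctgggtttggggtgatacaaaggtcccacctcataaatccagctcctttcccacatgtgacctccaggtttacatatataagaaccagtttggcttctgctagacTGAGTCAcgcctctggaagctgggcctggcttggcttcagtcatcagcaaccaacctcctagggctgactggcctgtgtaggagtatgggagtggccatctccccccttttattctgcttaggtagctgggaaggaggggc
Tnf: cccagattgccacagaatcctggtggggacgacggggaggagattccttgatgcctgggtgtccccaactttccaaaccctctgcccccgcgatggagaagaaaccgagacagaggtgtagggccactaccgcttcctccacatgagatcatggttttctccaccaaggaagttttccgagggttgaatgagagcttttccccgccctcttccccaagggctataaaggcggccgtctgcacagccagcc

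In a window of 250 bases before to 50 after the start, Il6 held 1 NF-κB match, GGGATTTTCC, from -44 to -35. It also held 1 AP-1 match, TGAGTCA, from -249 to -243. Il1rn held the same AP-1 letters from -141 to -135 in 1 of its 3 windows and no NF-κB match. Thus 1 of the 6 genes had the NF-κB consensus, against 5.14% of the 27025 genes in the RefSeq windows and 9.0% of the 989 table genes found there. AP-1 was in 2 of the 6, against 8.97% of all genes and 7.89% of table genes. The interferon-stimulated response element was in none of the 6, against 3.99% and 8.9%. The windows of Tnf, Il33, Il1r2 and Il18bp had no match to these 3 motifs, which says only that the letters are not there.

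All 7 genes fell with DT-061, where 65.0% of the table's genes fell and 30.4% rose. Their median log2 change was -0.87, beside -0.58 over the whole table, which includes the genes that rose. Over only the genes lower in DT-061 the median was also -0.87, so the 7 fell about as far as a typical lower gene. The cytokine genes and the inhibitor genes of the interleukin-1 family were both lower. These inhibitors act on IL-1 or IL-18, whose own genes had no row, so no cytokine was measured beside its inhibitor. In 4 of the 7, Il33, Il1r2, Il18bp and Il17ra, no DT-061 value reached the Vehicle range. The groups were apart for 78.3% of all table genes, and apart with DT-061 lower for 48.2%. Of the 894 genes with a lower mean in DT-061 aortas, 71.7% were apart, a larger share than among the 7. The direction depended on scaling: with the libraries rescaled to one median, Il18bp turned to 0.015, and with quantile normalization Il18bp turned to 0.012 and Tnf to 0.093. These scalings shifted the changes of all genes by a median of 0.68 and 0.56, and assume a balance that a table of selected genes need not have. In RNA from whole aorta, fewer cells of a type and less RNA per cell cannot be told apart.

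**Figure D1:**
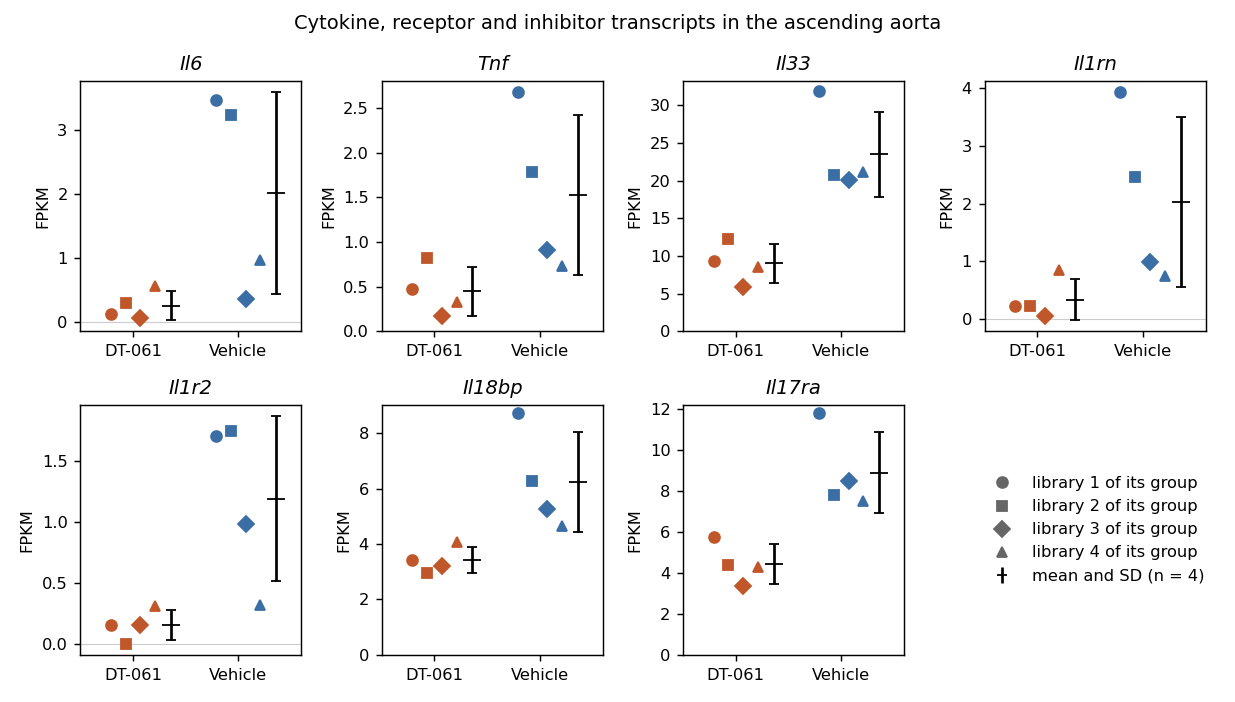
FPKM of each gene in each library (y axis, linear), DT-061 on the left and Vehicle on the right, with markers for libraries 1 to 4 and the mean and SD (n = 4) beside them. Il33, Il1r2, Il18bp and Il17ra have no DT-061 point above a Vehicle point, while Il6, Tnf and Il1rn overlap.

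Il33 encodes a nuclear cytokine that stromal and endothelial cells release on damage and that acts on T cells, mast cells and innate lymphoid cells. It was the most abundant of the set (ENSMUSG00000024810, chromosome 19, 29925114 to 29960718). DT-061 libraries 1 to 4 held 9.33, 12.3, 5.90 and 8.52 FPKM, against 31.9, 20.8, 20.1 and 21.1 in Vehicle libraries 1 to 4. Every Vehicle library was above every DT-061 library, and 3 of the Vehicle libraries were nearly level. The means were 9.01 ± 2.62 FPKM in DT-061 aortas and 23.5 ± 5.64 in Vehicle aortas (mean ± SD, n = 4 each), which is 2.61-fold lower with DT-061. The log2 change was -1.30 ± 0.22 (SE; limma adjusted p = 0.013). It was the largest fall of the set on this scale. With quantile normalization Il33 alone of the 7 kept its call, at -0.98, but with the median rescaling it lost it, at -0.51 (limma adjusted p = 0.067), where Il6, Il1rn and Il1r2 kept theirs with larger changes.

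Il6 encodes a cytokine that drives the acute phase response. Its transcript was scarce (ENSMUSG00000025746, chromosome 5, 30013114 to 30019981). It had 0.128, 0.294, 0.0634 and 0.563 FPKM in DT-061 libraries 1 to 4, against 3.47, 3.23, 0.369 and 0.977 in Vehicle libraries 1 to 4. Vehicle libraries 1 and 2 stood far above the rest, and Vehicle library 3 lay below DT-061 library 4. The means were 0.262 ± 0.223 FPKM in DT-061 aortas and 2.01 ± 1.57 in Vehicle aortas (mean ± SD, n = 4 each), 7.68-fold lower with DT-061. The log2 change was -1.10 ± 0.39 (SE; limma adjusted p = 0.028). The lowest DT-061 value stood for at most 2 fragments. Leaving out any 1 of DT-061 libraries 1, 2 or 3 or Vehicle libraries 1 or 2 ended the call, at limma adjusted p of 0.052 to 0.068.

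Tnf encodes the founding cytokine of its superfamily (ENSMUSG00000024401, chromosome 17, 35199381 to 35202007). It had 0.467, 0.820, 0.168 and 0.332 FPKM in DT-061 libraries 1 to 4, against 2.68, 1.79, 0.908 and 0.735 in Vehicle libraries 1 to 4. Only DT-061 library 2 and Vehicle library 4 overlapped. These values came out within 0.1 of a whole fragment in all 8 libraries, 11, 21, 4 and 8 with DT-061 and 71, 65, 26 and 17 with Vehicle. The 4 fragments of DT-061 library 3 have an exact 95% Poisson interval of 1.09 to 10.2, which covers counting error only. The means were 0.447 ± 0.277 FPKM in DT-061 aortas and 1.53 ± 0.894 in Vehicle aortas (mean ± SD, n = 4 each), so that the difference in log2 was -0.76 ± 0.27 (SE; limma adjusted p = 0.027). The call ended when DT-061 library 1, 3 or 4 or Vehicle library 2 was left out, at limma adjusted p of 0.053 to 0.067.

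The inhibitor genes of the interleukin-1 family fell beside the cytokines. Il1rn, the receptor antagonist (ENSMUSG00000026981, chromosome 2, 24336853 to 24351494), had 0.225, 0.233, 0.0557 and 0.851 FPKM in DT-061 libraries 1 to 4, against 3.92, 2.46, 0.995 and 0.744 in Vehicle libraries 1 to 4. DT-061 library 4 lay above Vehicle library 4 and the other libraries did not cross. The log2 change of Il1rn was -1.08 ± 0.35 (SE; limma adjusted p = 0.023), from means of 0.341 ± 0.350 FPKM in DT-061 aortas and 2.03 ± 1.47 in Vehicle aortas (mean ± SD, n = 4 each). Removing DT-061 library 1 or 3 or Vehicle library 2 ended its call, at limma adjusted p of 0.050 to 0.055.

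Il1r2, the decoy receptor (ENSMUSG00000026073, chromosome 1, 40074079 to 40125231), had 0.156, 0, 0.155 and 0.305 FPKM in DT-061 libraries 1 to 4, against 1.71, 1.75, 0.985 and 0.318 in Vehicle libraries 1 to 4. The groups were separated by a narrow gap, since Vehicle library 4 was almost level with DT-061 library 4. Both of these libraries held about 8 fragments of Il1r2. The 0 in DT-061 library 2 allows up to 0.107 FPKM, the value of 3 fragments. Means of 0.154 ± 0.124 FPKM in DT-061 aortas and 1.19 ± 0.680 in Vehicle aortas (mean ± SD, n = 4 each) gave a 7.74-fold lower level with DT-061 and a difference in log2 of -0.87 ± 0.24 (SE; limma adjusted p = 0.018). The annotated interval of Il1r2 overlaps the predicted genes Gm16894 and Gm37347, so some of their reads may be mixed with its own. Whether their exons overlap was not examined.

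Il18bp, the IL-18 binding protein (ENSMUSG00000070427, chromosome 7, 102014885 to 102018690), was steadier. It had 3.43, 2.97, 3.20 and 4.08 FPKM in DT-061 libraries 1 to 4, against 8.74, 6.27, 5.27 and 4.65 in Vehicle libraries 1 to 4. The DT-061 libraries lay close together, and the Vehicle libraries spread upward from just above them. The level was 1.82-fold lower with DT-061, with means of 3.42 ± 0.477 FPKM and 6.23 ± 1.80 with Vehicle (SD, n = 4), and the log2 change was -0.69 ± 0.19 (SE; limma adjusted p = 0.018). This is the smallest of the 7 changes. The annotated interval of Numa1 overlaps this gene, so reads of the 2 may be mixed.

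Il17ra encodes the receptor chain shared by several IL-17 cytokines (ENSMUSG00000002897, chromosome 6, 120463247 to 120487559). It had 5.75, 4.37, 3.37 and 4.30 FPKM in DT-061 libraries 1 to 4, against 11.8, 7.78, 8.46 and 7.53 in Vehicle libraries 1 to 4. All Vehicle libraries were above all DT-061 libraries. The means were 4.45 ± 0.983 FPKM in DT-061 aortas and 8.89 ± 1.97 in Vehicle aortas (mean ± SD, n = 4 each), 2.0-fold lower with DT-061. The log2 change was -0.86 ± 0.18 (SE; limma adjusted p = 0.016). With the median rescaling it was -0.13 and with quantile normalization -0.24, and neither passed.

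In level, Il33 was followed by Il17ra and Il18bp in every library of both groups. The ranges of Il17ra and Il18bp overlapped in both groups, although Il17ra was higher in 4 of 4 libraries of each. The other genes were lower and close together. In the DT-061 aortas their means ran from 0.447 FPKM for Tnf through Il1rn and Il6 to 0.154 for Il1r2, and in the Vehicle aortas from 2.03 for Il1rn through Il6 and Tnf to 1.19 for Il1r2. Neighbours among these 4 had overlapping ranges in both groups. Il1rn and Il6 changed places from library to library, with Il1rn higher in 2 of 4 in each group.

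Members were also compared with each other in how much they changed. In 21 pairs, the difference of the 2 changes was tested by a two-sided exact permutation test over the 70 assignments of libraries. Il33 fell further than Tnf by 0.55 log2 units, with an exact permutation p of 0.029, the smallest these groups can give, and an adjusted p of 0.40. No pair passed after adjustment, which does not show that the changes were alike. That pair alone had an unadjusted p under 0.05.

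The 7 genes also varied within their groups. DT-061 library 3 had the lowest value of its group in 5 of the 7, the exceptions being Il1r2 and Il18bp, which were lowest in library 2. Vehicle library 1 was the highest of its group in 6 and Vehicle library 4 the lowest in 5. To describe this, each gene's log2(FPKM + 1) was centred on its group means and scaled to its own spread. The root mean square difference of such patterns over the 8 libraries is 0 for the same pattern, 1.41 for unrelated ones and 2 for opposite ones. Within the set, Il1rn and Il18bp were the most alike at 0.317, and Il33 and Il1r2 the least at 1.31. The libraries share their scaling, so genes can be alike for that reason too, and what part it plays was not tested.

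Among 1095 other genes with a mean of at least 1 FPKM, the closest to Il33 were Panx1, a channel gene, at 0.150, then 1700025G04Rik and Hpse, the heparanase gene. Panx1 had 2.06, 2.66, 0.893 and 1.64 FPKM in DT-061 libraries 1 to 4, against 6.50, 4.12, 4.16 and 3.99 in Vehicle libraries 1 to 4, with the same high Vehicle library 1 as Il33. Il1rn was closest to Lcn2 at 0.197, followed by Tmem8 and Zbp1. The closest to Il6 were Tmem8 at 0.304, Lcn2 and Tmem82, although Tmem82 rose with DT-061. For Il18bp they were Nabp1 at 0.137, Oasl1 and Zbp1, and for Tnf Fam167b at 0.268, Lat2 and Gpr35. Il1r2 was closest to the immunoglobulin variable gene Ighv1-64, at 0.275, then to a second gene of that kind and to Grrp1. Reads of such variable genes may be split between near-identical copies, so their values are uncertain. Il17ra was closest to Ms4a8a at 0.293, Dync1li1 and Slfn9, of which Dync1li1 rose. Over all candidates the median difference was 1.06 to 1.20.

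Leukocyte markers in the table mostly fell too. The table was selected for significance, so 95.4% of its genes passed and 65.0% fell, and counts of calls say little. Listed markers without a row gave no values here. All 5 monocyte and macrophage markers in the table, of 18 listed, fell, and their summed level was 6.21 to 27.6 FPKM with DT-061 and 28.4 to 154 with Vehicle. Of 13 T and NK cell markers (21 listed), 12 fell and Cd3e did not pass, with sums of 2.75 to 9.70 FPKM with DT-061 and 7.68 to 87.1 with Vehicle. The 5 B and plasma cell markers (13 listed) summed to 24.1 to 76.8 FPKM with DT-061 and 156 to 5514 with Vehicle. The 5 dendritic cell markers (9 listed) summed to 0.618 to 3.66 with DT-061 and 4.63 to 16.9 with Vehicle. The 3 neutrophil markers (12 listed) summed to 0.569 to 2.46 FPKM with DT-061 and 1.46 to 24.8 with Vehicle. All of the B cell, dendritic and neutrophil markers named here fell. Defining markers at 0 in at least 1 DT-061 library were Xcr1 and S100a9, and 1 neutrophil marker was at 0 in a Vehicle library.

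Among resident cell types, the 3 fibroblast markers (12 listed) fell, with sums of 181 to 271 FPKM with DT-061 and 380 to 500.0 with Vehicle. All 6 smooth muscle markers (10 listed) rose, with sums of 12775 to 18121 FPKM with DT-061 and 7123 to 11419 with Vehicle, so the labelled vascular tissue carried its defining transcripts. Of the adipocyte list only Retn, 1 of 8, was in the table, at 1.69 to 5.81 FPKM with DT-061 and 8.70 to 25.1 with Vehicle. None of the 10 endothelial or the 10 mast cell and innate lymphoid markers had a row. The part of these cell types in the changes of the cytokine genes was not tested.

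Vehicle library 4 gives a comparison at low leukocyte marker levels. Its macrophage sum, 28.4 FPKM, was close to the highest DT-061 library, and the other Vehicle libraries held 79.3 to 154. All 7 genes stood above their DT-061 mean in this library. Rows were selected for a difference between the groups, so such a position of a Vehicle library is largely given in advance. Il6 was 3.73 times that mean, Il33 2.34, Il1rn 2.18, Il1r2 2.07, Il17ra 1.69, Tnf 1.64 and Il18bp 1.36. Il1rn and Tnf were still below the highest DT-061 library, and Il1r2, at 0.318 FPKM against 0.305, was almost level with it. By the same measure the macrophage marker sum was 1.46 times its DT-061 mean and the dendritic cell sum 1.75. The T and NK cell sum was 1.44 times, the B and plasma cell sum 2.99 and the neutrophil sum 0.99. Of the other cell types, the fibroblast sum was 1.63 times its DT-061 mean, Retn 2.23 and the smooth muscle sum 0.69. The fibroblast sum, 380 FPKM, was above the highest DT-061 library, 271, and below the other Vehicle libraries, 455.5 to 500. What part cell content had here was not tested. Against Vehicle library 4, the mean of the other Vehicle libraries was 4.66-fold higher for Il1r2, 3.30 for Il1rn, 2.44 for Tnf, 2.41 for Il6, 1.45 for Il18bp, 1.24 for Il17ra and 1.15 for Il33. Without Vehicle library 4 all 7 genes remained lower and past the threshold by limma.

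**Figure D2:**
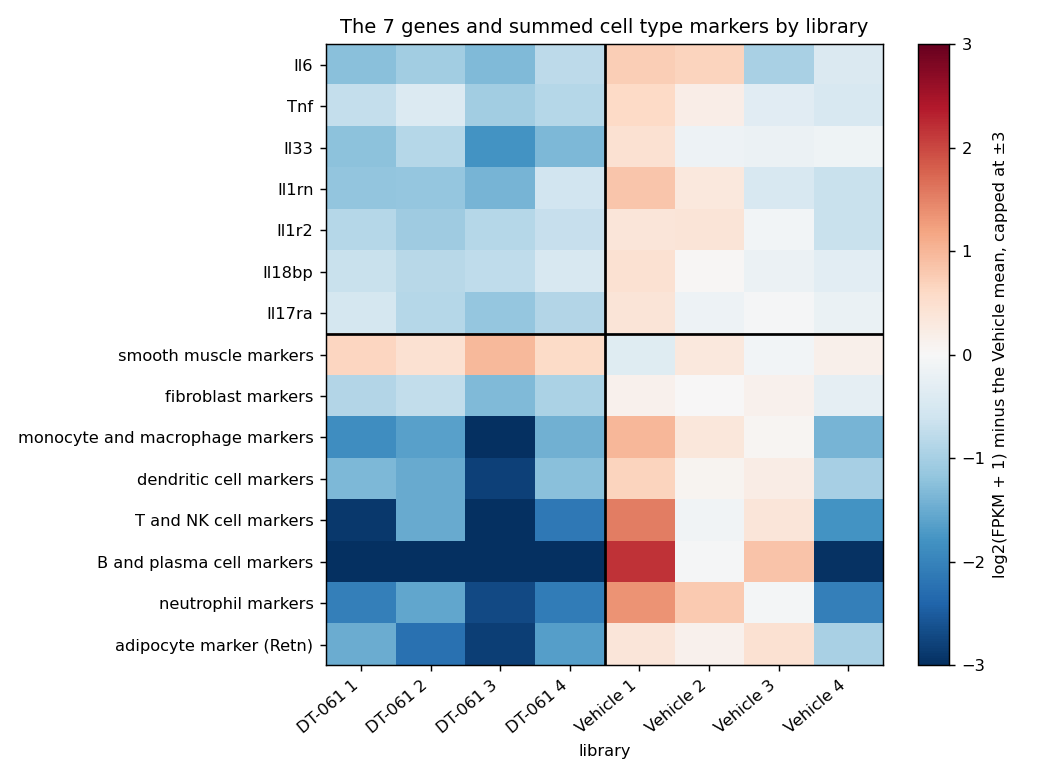
Heat map of log2(FPKM + 1) minus the Vehicle mean (colour, capped at ±3), for the 7 genes and the summed markers of each cell type (rows) in the 4 DT-061 and 4 Vehicle libraries (columns). Vehicle library 4 is near the DT-061 libraries in the macrophage, T and NK cell and neutrophil rows, whereas Il33 and Il17ra in it are near the other Vehicle libraries. Its dendritic cell sum, 4.63 FPKM, is above the highest DT-061 library, 3.66, and so is its fibroblast sum, 380 FPKM against 271. Its B and plasma cell sum, 156 FPKM, is well above the 24.1 to 76.8 with DT-061, a difference that the colour cap hides.

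The wider pathways were followed with 12 lists, chosen with earlier results of these data known, that held 178 genes besides the 7. Of these, 31 were in the table, 30 fell, 0 rose and Mmp13 did not pass. In the whole table, which was selected for significance, 65.0% fell and 95.4% passed in either direction. Their median log2 change was -1.06, and 23 of the 31 had DT-061 values wholly below the Vehicle values, against 71.7% of the lower genes of the table. Of the 31, 6 that are called here lost their call when some single libraries were left out, namely Tnfsf11, Cd40, Pycard, Nfkbie, Ptpn6 and Saa2. With the median rescaling 13 fell and with quantile normalization 12, and Myd88, Gsdmd, Adam17 and Nfkb2 turned to higher with the median rescaling and Sigirr and Cd40 with quantile normalization. Genes of the lists for IL-6 family receptors and IL-17 ligands had no row. In the IL-1 family, 2 of 11 listed ligand genes and 3 of 11 listed receptor and binding protein genes had one. Those without a row included Il1a, Il1b, Il18, Il1r1 and Il18r1, so their levels are not known here.

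Among receptors, Sigirr, an inhibitory member of the IL-1 receptor family, fell by 0.68 on the log2 scale. Tnfrsf1b, a receptor of TNF found mostly on leukocytes and endothelium, had 9.38 ± 3.60 FPKM in DT-061 aortas and 20.1 ± 6.03 in Vehicle aortas (mean ± SD, n = 4 each), and fell by 1.05. Tnfrsf14 and Cd40 fell by 0.86 and 0.69. With a library left out, the Cd40 call held without Vehicle library 1, at -0.42, or Vehicle library 4, and ended in the other 6 of 8 fits (limma adjusted p of 0.054 to 0.092) and with the replicate block. All 3 TNF family receptors in the table, of 25 listed, thus fell, beside 65.0% of all genes in the table. Among ligands, Tnfsf8, which encodes the ligand of the activation receptor CD30, fell by 0.83 and Tnfsf11, the osteoclast factor RANKL, by 0.50. Both were scarce, at 0.131 ± 0.0938 and 0.0537 ± 0.0519 FPKM in DT-061 aortas and 1.04 ± 0.421 and 0.535 ± 0.424 in Vehicle aortas (mean ± SD, n = 4 each). The Tnfsf11 call ended in 7 of 8 fits with a library left out, all but that without Vehicle library 4 (limma adjusted p of 0.053 to 0.071), and with the replicate block and both scalings.

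All 8 adaptor, kinase and inflammasome genes in the table, of 27 listed, fell, beside 65.0% of all genes in the table. The receptor adaptor Myd88 had 10.4 ± 0.685 FPKM in DT-061 aortas and 15.5 ± 3.19 in Vehicle aortas (mean ± SD, n = 4 each), a log2 change of -0.51. Traf1, a TNF receptor associated factor, changed by -1.26 and the necroptosis kinase Ripk3 by -1.16. Genes of the inflammasome and pyroptosis were in this group: Casp4 changed by -1.02, the DNA sensor Aim2 by -0.95, the adaptor Pycard by -0.82 (its call ended without DT-061 library 3 or Vehicle library 2) and the pore protein Gsdmd by -0.66. Adam17, the protease that releases TNF from the membrane, had the smallest change, -0.37, with 11.7 ± 0.530 FPKM in DT-061 aortas and 15.4 ± 1.25 in Vehicle aortas (mean ± SD, n = 4 each).

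The 3 NF-κB genes in the table (20 listed) fell, as did Socs3, Jak3 and Ptpn6 of the STAT3 signalling list. Bcl3, an atypical inhibitor protein that works in the nucleus, had 3.65 ± 2.67 FPKM in DT-061 aortas and 13.6 ± 6.43 in Vehicle aortas (mean ± SD, n = 4 each), a log2 change of -1.74. Nfkbie changed by -1.05 and Nfkb2 by -0.51. Socs3, the feedback inhibitor that IL-6 induces through STAT3, had 6.05 ± 2.96 FPKM in DT-061 aortas and 22.6 ± 7.86 in Vehicle aortas (mean ± SD, n = 4 each), so that the difference in log2 was -1.78 ± 0.36 (SE; limma adjusted p = 0.015). Jak3 and the phosphatase gene Ptpn6 changed by -1.26 and -1.45. The calls of Nfkbie and Ptpn6 each ended in 5 of 8 fits with a library left out, at limma adjusted p of 0.051 to 0.070 and 0.055 to 0.071, and that of Ptpn6 also with the replicate block.

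Genes that these cytokines are known to induce included the largest changes among the listed genes. Of 10 in the table (33 listed), 9 fell, beside 65.0% of all genes in the table, and the median log2 change was -2.06 for all 10. The changes of Tnfaip2, Saa2 and Mmp13 were smaller than those of Socs3 and Bcl3. Saa3, an acute phase protein gene, had 1.97 ± 2.40 FPKM in DT-061 aortas and 64.8 ± 61.8 in Vehicle aortas (mean ± SD, n = 4 each), so that the difference in log2 was -3.96 ± 1.01 (SE; limma adjusted p = 0.017), and its groups overlapped. Saa2 was listed at 0 in all 4 DT-061 libraries and at 5.57, 0.591, 0.0938 and 1.16 FPKM in Vehicle libraries 1 to 4. Vehicle library 1 stood far above the rest. The log2 change of Saa2 was -1.16, and -0.64 without that library, and its call ended in 6 of 8 fits with a library left out (limma adjusted p of 0.055 to 0.090). The iron-scavenging protein gene Lcn2 had 1.68 ± 1.02 FPKM in DT-061 aortas and 18.5 ± 13.4 in Vehicle aortas (mean ± SD, n = 4 each), 11.0-fold lower. Haptoglobin (Hp), Lrg1 and the protease inhibitor gene Serpina3n were 6.56-fold, 5.27-fold and 4.27-fold lower. The monocyte-attracting chemokine genes Ccl2 and Ccl7 were 4.02-fold and 4.07-fold lower, and Tnfaip2 was 2.67-fold lower. Mmp13, a collagenase gene, did not pass, at 0.369 ± 0.165 FPKM in DT-061 aortas and 2.0 ± 1.81 in Vehicle aortas (mean ± SD, n = 4 each; limma adjusted p = 0.068).

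**Figure D3:**
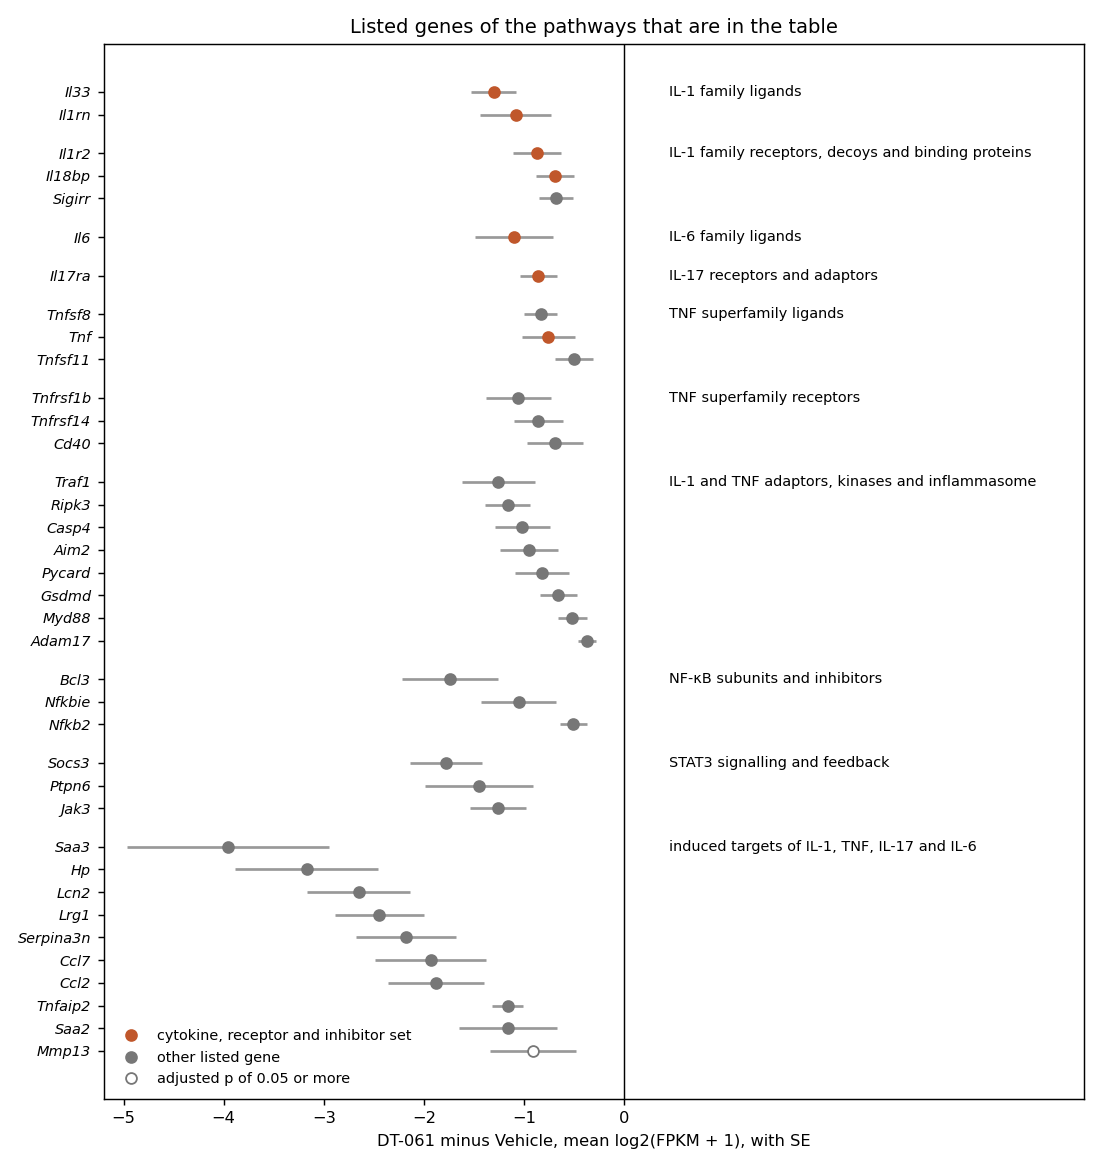
Log2 change, DT-061 minus Vehicle, with SE (x axis) for the listed genes in the table other than 1 that is not reported here, grouped by role down the page; orange points are the 7 genes described and the open point did not pass. Every point lies left of 0, and the induced targets reach furthest, to -3.96 for Saa3.

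The size of the changes of scarce genes depended on the pseudocount. With 0.1 in place of 1, Il6 changed by -2.32, Il1rn by -2.30, Il1r2 by -2.29 and Tnf by -1.55, while Il33 changed by -1.39. On that scale the scarce genes, not Il33, had the largest changes.

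**Figure D4:**
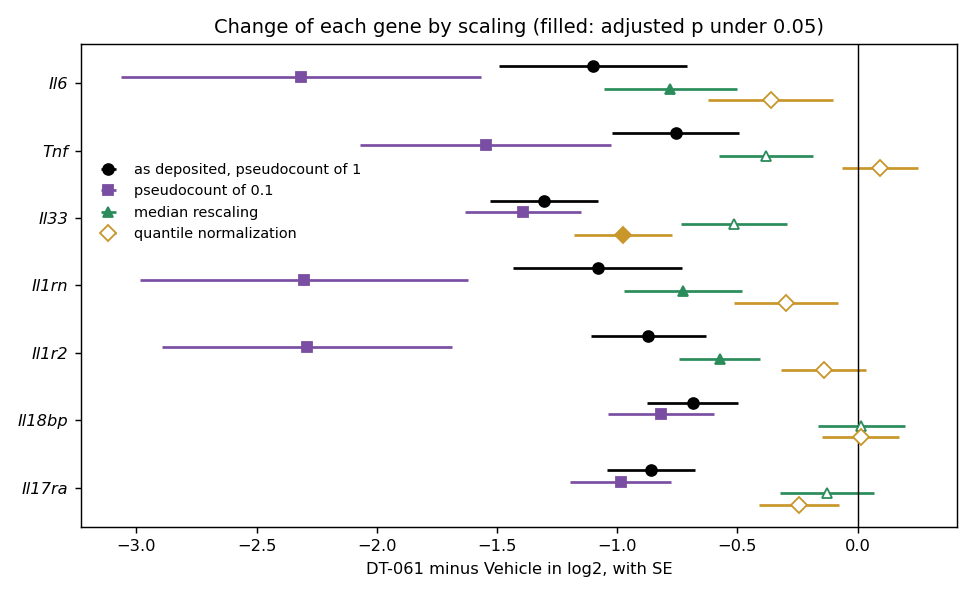
Log2 change of each of the 7 genes, DT-061 minus Vehicle, with SE (x axis), as deposited with a pseudocount of 1 and of 0.1, and with the median rescaling and quantile normalization; filled points have a limma adjusted p under 0.05. The 2 scalings move every gene toward 0, and Il18bp and Tnf reach it.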

How the data were processed

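Poly-A RNA of 8 ascending aorta libraries was sequenced as paired-end reads. The tools named, per the submitters' processing notes and without their roles, are featureCounts 1.5.0-p3, HISAT2 2.0.5 and StringTie 1.3.3b, with mm10 as the build. The deposited values are FPKM made by the authors, per the file headers; the sources used here do not give the total of fragments, the strand setting or the test that selected the 1329 genes. Symbols matched 1328 identifiers. Coordinates and exonic lengths came from GENCODE M21 (GRCm38, the same build as mm10).

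Library sizes were recovered from multiples of up to 60 fragments on genes whose values were whole, within 0.03, in 3 other libraries; 83.3% to 100% of these were whole at the chosen step. For Il6 and Il1rn the steps match more than 1 gene length, so their numbers of fragments are upper estimates. Limma 3.58.1 in R 4.3.3, with trend and robust options, was fitted to log2(FPKM + 1) of all genes with treatment as the only term and Benjamini-Hochberg adjustment; it was tested on simulated data. The genes and lists were chosen with earlier results of these data known. Named genes are the 7, the listed pathway genes with a row (the values of 1 are not reported here), the 3 genes nearest each of the 7, and markers. The fit was repeated with a pseudocount of 0.1, with a minimum mean of 1 FPKM, with plain limma, under 2 scalings, without single libraries and with a replicate block. Libraries with the same number did not deviate together, so they were not treated as pairs.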

Additional observations from a re-analysis of the deposited data

Results flagged for a closer look

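In 75 groups of 4 libraries, those of the 38 listed genes that varied, 3 held a library far from the others by Dixon's ratio (above 0.829), and chance flags about 1 in 20 groups. All were Vehicle library 1. Il33 stood at 31.9 FPKM there, against 20.1 to 21.1 in the other Vehicle libraries. Nfkb2, an NF-κB subunit gene, stood at 29.5 FPKM, against 19.7 to 20.6. Lrg1 stood at 122.9 FPKM, against 59.5 to 67.3. Without Vehicle library 1, Il33 changed by -1.15 and kept its call (limma adjusted p = 0.023).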

How the results depend on the processing

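Of the 7 genes, Il33, Il1r2, Il18bp and Il17ra kept their calls without any 1 library; over those fits Il6 changed by -1.42 to -0.85, Il1rn by -1.30 to -0.81 and Tnf by -0.92 to -0.55. With both DT-061 library 3 and Vehicle library 4 removed, Il6 changed by -1.17 (limma adjusted p = 0.052) and the other 6 kept their calls. With the median rescaling Il33, Il17ra and Tnf lost their calls at -0.51, -0.13 and -0.38, Il18bp turned to 0.015, and no member's groups stayed apart (0 of 7). With quantile normalization Il6, Il1rn, Il1r2 and Il17ra lost theirs at -0.36, -0.30, -0.14 and -0.24, Il18bp turned to 0.012 and Tnf to 0.093, and the groups of 1 gene stayed apart. The cause was not tested. With the replicate block, Il1rn changed by -1.08 and lost its call (limma adjusted p = 0.050), and 204 genes of the table rose against 404; the correlation of same-numbered libraries' deviations was 0.18, -0.11, -0.05 and -0.47, and not every library matched its own number best. Leaving out 1 library gave 254 to 351 rises over the table, the lowest without Vehicle library 3. Falls over the table were 301 with the median rescaling and 209 with quantile normalization, against 864, and falls of other listed genes 13 and 12, against 30. Myd88, Gsdmd, Adam17 and Nfkb2 turned to 0.28, 0.13, 0.42 and 0.30 with the median rescaling, and Sigirr and Cd40 to 0.25 and 0.23 with quantile normalization. Of 462 values for the 31 other listed genes under the alternatives, 389 kept their direction and side of the threshold, 65 lost the call and 2 gained it. A wider NF-κB motif, with any letters in its middle, was in 3 of 6 promoters, against 1 for the NF-κB consensus, and in 53.5% of all genes and 72.0% of table genes. Pairs of genes past the threshold were 0 in every setting run, but the exact test could not pass with the replicate block (smallest p 0.125) or with both libraries removed (0.10). In the other settings the smallest p of the exact test was 0.029. After adjustment a pair could pass there only if many pairs reached that value together, so these counts of 0 say little. Tnf and Il1r2, below a mean of 1 FPKM, gave no value with that minimum.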
